A study of Drosophila melanogaster
Mus musculus with 21 samples.

Results

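Potassium channel genes were followed through acute loss of Polycomb repressive complex 1 (PRC1) in mouse embryonic stem cells. The set holds every gene whose symbol begins with Kcn, 98 of the 19397 symbols in the tables, with 118 of the 20633 table entries. Membership follows the spelling alone and no measured value, but the set was chosen with earlier results of these data known. Where a symbol had several entries, the one with the most untreated reads stood for it, which concerned 15 symbols. Of the 98 symbols, 94 are protein-coding genes and 4 are noncoding RNAs named after a channel gene.

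Nuclear RNA was sequenced in 21 libraries of 7 groups, with 3 biological replicates each, from E14-derived stem cells mixed with Drosophila SG4 cells as a spike-in. The PRC1deg line has the genotype Rosa26::Tir1, Ring1A-/- and AID-Ring1B, so the controls also lack RING1A, and auxin acts on the RING1B that is left. PRC1deg cells were untreated or received 500 µM auxin (indole-3-acetic acid) for 2, 4, 8 or 24 h. The PRC2deg line has the genotype Pcgf2-HaloTag and dTAG-Suz12, and was untreated or received 100 nM dTAG-13 for 2 h. SUZ12 is a core subunit of Polycomb repressive complex 2 (PRC2). Auxin-treated cells without the degron were not analysed here, so an effect of auxin itself cannot be told apart from the loss of RING1B.

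Potassium channels let potassium ions leave or enter a cell down their gradient and so set the resting potential and end electrical signals. Their pore is built from subunits of several families: voltage-gated channels open on depolarisation, inward rectifiers and tandem-pore leak channels hold the resting potential, and ligand-activated channels respond to calcium or sodium inside the cell. Silent modifier subunits and auxiliary subunits make no pore of their own and change the gating or transport of a pore-forming partner. Many of these genes are used mainly in neurons, heart and secretory cells. PRC1 places ubiquitin on histone H2A at silent developmental genes in stem cells, and PRC2 places methyl groups on histone H3 there.

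The untreated mean is given as normalised reads per kilobase of the gene body, and untreated reads are that value times the length. The fold changes and adjusted p-values are the authors' own from DESeq2 and lack standard errors and values of single libraries, so the spread between replicates enters only through the adjusted p. Calls required a fold change of more than 1.5 together with an adjusted p under 0.05. Summed over all entries, the untreated mean came to 30450536 normalised reads in PRC1deg and 29474239 in PRC2deg; how deep each library was is unknown. The 4 auxin comparisons share the same untreated libraries. All 7 stem cell markers found, among them Pou5f1, Nanog and Zfp42, were high before treatment, from 129 to 3585 reads per kilobase in the PRC1deg line. Of 5 fibroblast markers in that line Col3a1 stood lowest at 0.0862 reads per kilobase and Thy1 highest at 116. Of 5 neuronal markers Rbfox3 was lowest at 0.45 and Tubb3 highest at 120. In the untreated PRC2deg line Col1a1, Acta2, Col3a1 and Col1a2 stood at 85.9, 32.4, 6.24 and 6.22, beside 5.16, 0.329, 0.0862 and 1.25 in PRC1deg. Thy1 went the other way, at 59.2 beside 116. This difference between the lines was not tested.

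Before treatment the potassium channel genes were expressed at low levels. Their median was 1.71 reads per kilobase in the PRC1deg line, where the median of all symbols was 12.3, and 1.78 in the PRC2deg line, where it was 10.7. The noncoding RNA Kcnq1ot1, the imprinted antisense transcript of the Kcnq1 locus, was the highest entry at 159 reads per kilobase in PRC1deg and 210 in PRC2deg. Among channel genes Kcnk5, an acid- and alkali-sensitive leak channel, led with 86.3 reads per kilobase in PRC1deg. Kcnj3, a subunit of the G-protein-gated inward rectifiers, had 32.7 and Kcnk6 29.9. In PRC2deg these genes and Kcnk1 were again among the highest, with Kcnk5 at 76.1, Kcnj3 at 62.0, Kcnk1 at 41.2 and Kcnk6 at 24.5 reads per kilobase. The lines were normalised separately, and without values per library the neighbours in these orders cannot be separated by their spread. At the other end 29 symbols had under 10 untreated reads in PRC1deg and 4 were listed at 0 (Kcna10, Kcnk9, Kcnk15 and Kcnmb4os1).

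**Figure D1:**
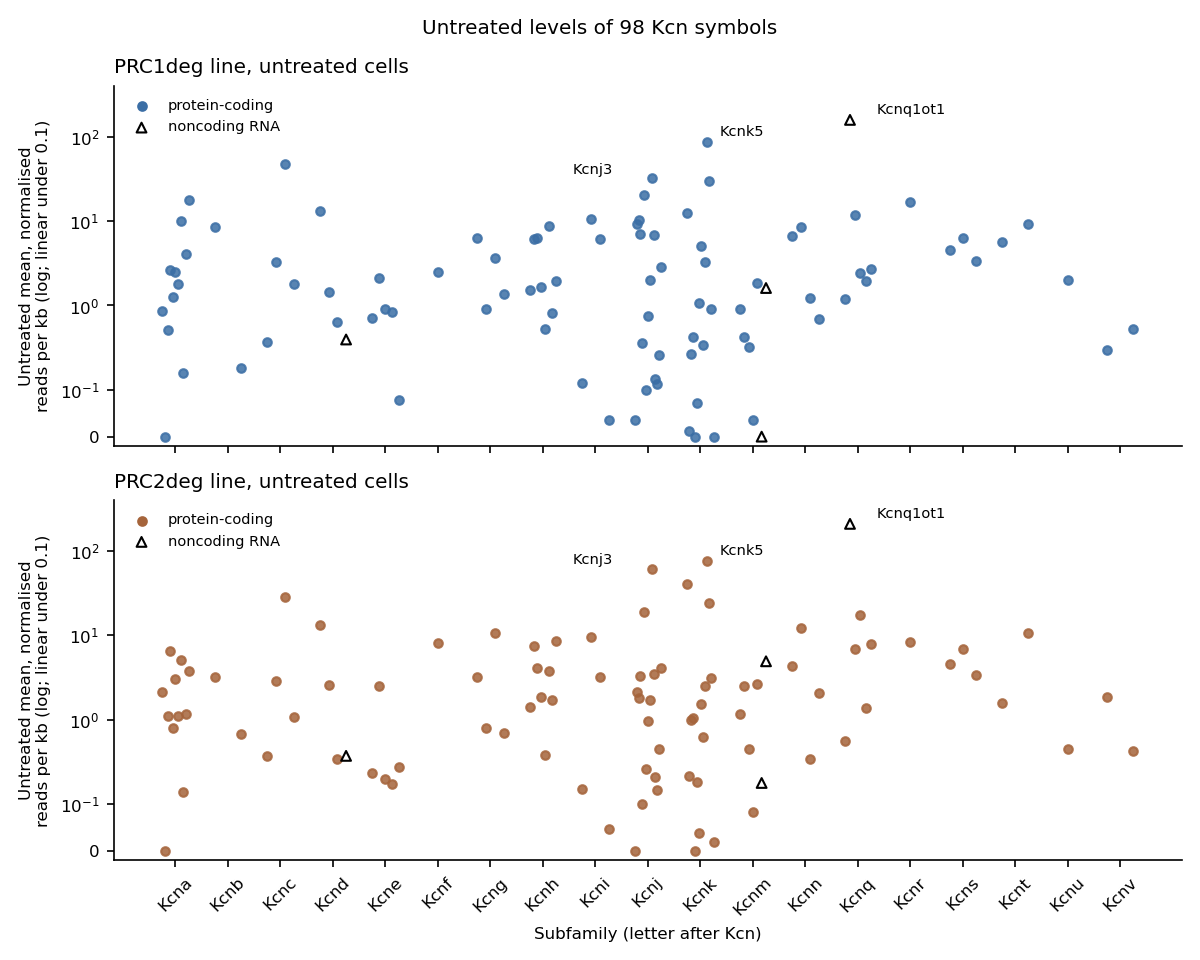
Untreated mean of each Kcn symbol in normalised reads per kilobase, on an axis that is logarithmic above 0.1 and linear below it, by subfamily letter, for the PRC1deg line (top) and the PRC2deg line (bottom). Each point is 1 symbol (triangles are noncoding RNAs). Most points lie under 10, and Kcnq1ot1 stands highest in both lines at 159 and 210.

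Auxin was followed by higher levels of many potassium channel genes and lower levels of very few. In bulk libraries more cells of a type and more RNA per cell cannot be told apart. After 2 h 20 of the 92 symbols with an adjusted p were called higher, 21.7%, where 5.52% of all tested symbols were. After 4 h 42 of 90 were higher, 46.7% against a background of 16.0%, and after 8 h 50 of 87, 57.5% against 25.5%. After 24 h 30 of 90 were higher, 33.3% against 11.4%. One member was lower at 2 h (background 0.25%) and 1 at 24 h (background 0.602%). None was lower by the authors' DESeq2 values at 4 h (background 0.128%) or 8 h (background 0.0808%), and by p-values worked back from the adjusted ones 0 members with a negative change had an unadjusted p under 0.05 at either time. The median log2 fold change of the members in the authors' deposited table was 0.21, 0.70, 0.83 and 0.51 at 2, 4, 8 and 24 h, beside 0.11, 0.32, 0.44 and 0.19 for all symbols.

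Most genes shifted upward with auxin, and the counts depend on that shift. The median of all entries with 50 or more untreated reads in the authors' deposited table was 0.15, 0.40, 0.50 and 0.24 at 2, 4, 8 and 24 h. With fold changes centred on it, 20, 37, 39 and 30 members were higher, against centred backgrounds of 5.43%, 9.68%, 10.5% and 9.56%. Among the 48 members with 50 or more untreated reads 8, 24, 30 and 17 were higher, or 16.7%, 50.0%, 62.5% and 35.4%, while 4.12%, 14.6%, 25.4% and 8.94% of all symbols with that many reads were. In the labels the 24 h libraries of that line are numbered apart from its other libraries, and whether they were handled separately cannot be told apart from the longer treatment.

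**Figure D2:**
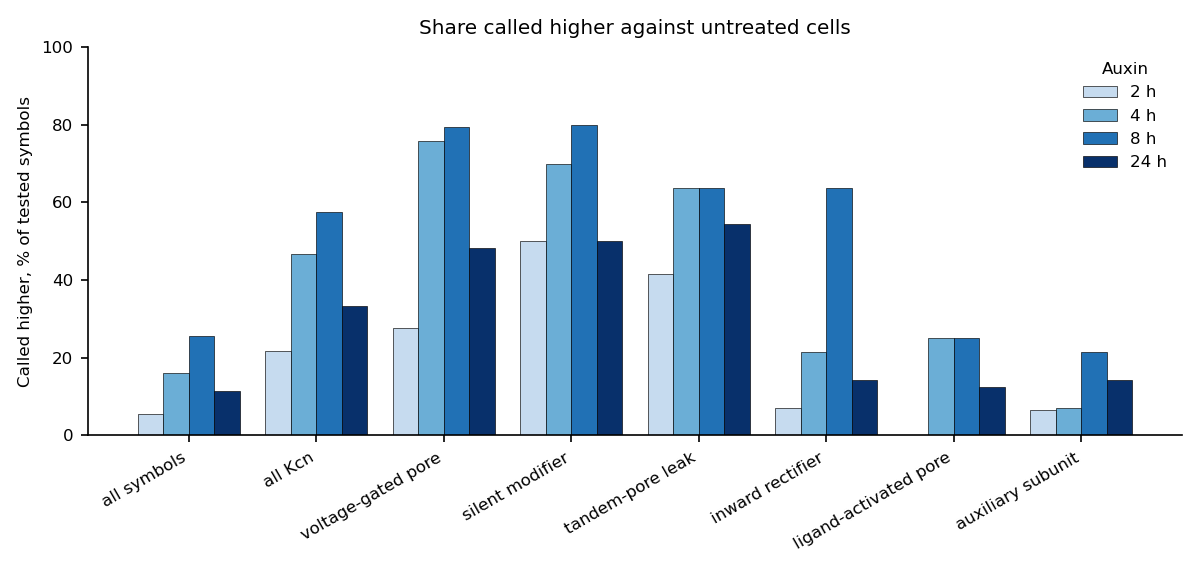
Percentage of tested symbols called higher against untreated cells after 2, 4, 8 and 24 h of auxin, for all symbols, all Kcn symbols and 6 roles. The all-Kcn bars reach 57.5% at 8 h, where all symbols reach 25.5%, and the auxiliary subunits stay at or under 21.4%.

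The members' roles differed in how many were called, a comparison that was not tested and for which genes are not replicates. At 4 h 22 of 29 voltage-gated pore genes were higher, 7 of 10 silent modifiers and 7 of 11 tandem-pore leak channels. So were 3 of 14 inward rectifiers, 2 of 8 ligand-activated pores and 1 of 14 auxiliary subunits. In that order the shares were 75.9%, 70.0%, 63.6%, 21.4%, 25.0% and 7.14%, beside 16.0% of all tested symbols. With centring the counts were 19, 7, 6, 3, 1 and 1, against a centred background of 9.68%. The role medians at 4 h in the authors' deposited table ran from 1.90 for the silent modifiers and 1.25 for the voltage-gated pores to 0.16 for the auxiliary subunits and 0.11 for the ligand-activated pores. Reads also differed between the roles: the median member had 145 untreated reads among voltage-gated pores, 35.9 among silent modifiers, 36.8 among auxiliary subunits and 23.7 among inward rectifiers. With 50 or more untreated reads, 15 of 21 voltage-gated pores, 3 of 3 silent modifiers and 2 of 4 leak channels were higher at 4 h. So were 1 of 5 inward rectifiers, 2 of 7 ligand-activated pores and 1 of 6 auxiliary subunits. Of all symbols with that many reads 14.6% were higher at 4 h.

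**Figure D3:**
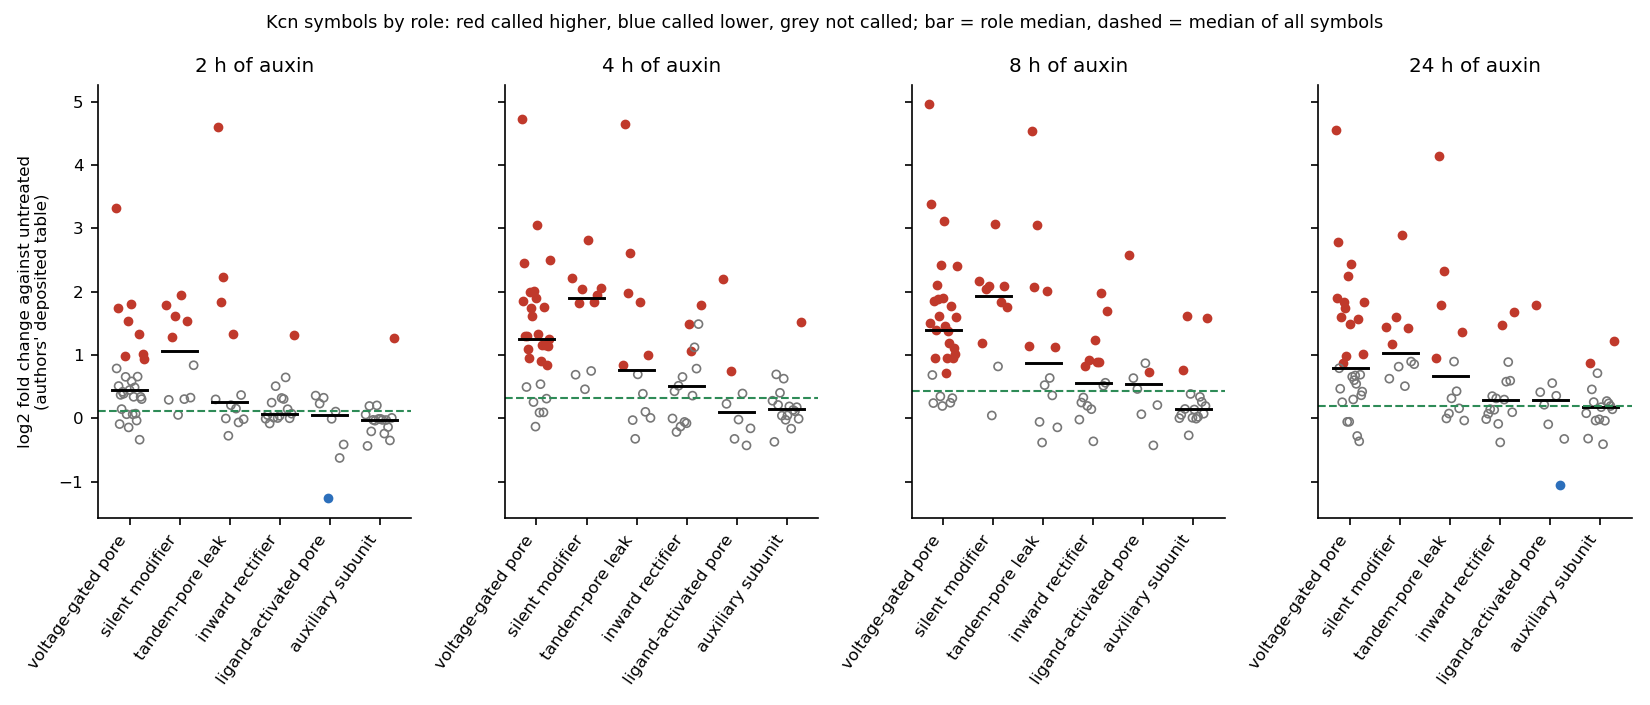
Log2 fold change of each Kcn symbol from the authors' deposited table by role, at 4 times of auxin (symbols listed at 0 untreated reads are not drawn). Red points were called higher, blue lower and open grey points not called, the bar is the median over all members of the role with a fold change, and the dashed line is the median of all symbols. At 4 h the silent modifier bar lies at 1.90 and the auxiliary subunit bar at 0.16.

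Among voltage-gated pore genes, 8, 22, 23 and 14 of 29 were higher at 2, 4, 8 and 24 h. These were 27.6%, 75.9%, 79.3% and 48.3%, beside 5.52%, 16.0%, 25.5% and 11.4% of all symbols. Kcnd3, a pore subunit of the fast transient A-type current, had 142 untreated reads over a gene of 222 kb and was higher at every time. Its log2 fold changes in the authors' deposited table were 1.81, 3.05, 3.12 and 2.43 at 2, 4, 8 and 24 h (DESeq2 adjusted p = 8.3e-06, 2e-15, 4.1e-16 and 5.1e-10). Its relative Kcnd2, with 745 untreated reads, had 0.45 at 2 h (adjusted p = 0.35) and was then higher at 1.90, 1.90 and 1.49 in the authors' deposited table. Kcnd1, the third gene of that subfamily and the one with the highest level per kilobase of the 3, at 13.3, ranged from -0.14 to 0.20 without a call in the authors' deposited table. The subfamily thus held members called at every time, from 4 h on and never.

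The Kcnc subfamily is known for channels of fast-spiking neurons. Kcnc4, with 36.6 untreated reads, was higher at 1.55, 2.00, 2.43 and 2.24 at 2, 4, 8 and 24 h in the authors' deposited table. Kcnc1, with 15.5 untreated reads, was higher at 0.99, 1.75, 1.88 and 1.74 in the authors' deposited table, and its 2 h call was narrow (adjusted p = 0.048). Kcnc2 stood at 0.66 at 2 h (adjusted p = 0.10) and was higher at 1.62, 1.62 and 0.99 afterwards in the authors' deposited table. Kcnb2, which encodes a delayed rectifier, had 72.2 untreated reads and 0.39 at 2 h (adjusted p = 0.44) and was then higher at 1.99, 2.10 and 1.84 in the authors' deposited table (adjusted p = 1.9e-07, 3.1e-08 and 2.3e-06).

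The Kcnq genes carry the slow M-type current of neurons and a repolarising current of the heart. Kcnq5 had 1532 untreated reads and was higher at 0.93, 2.49, 2.40 and 1.84 at 2, 4, 8 and 24 h in the authors' deposited table (adjusted p = 0.019, 1.9e-12, 1.2e-11 and 3.9e-07). Kcnq3, a subunit of the M-type channel with 698 untreated reads, was called only at 4 and 8 h, at 1.15 and 1.02 in the authors' deposited table, the latter not with centring. Kcnq1, the cardiac and epithelial member, had -0.34 and 0.31 at 2 and 4 h, was higher at 8 h at 0.96 and stood at 0.69 at 24 h (adjusted p = 0.075) in the authors' deposited table. The 8 h call of Kcnq1 was lost with centring, and the gene overlaps Kcnq1ot1 on the opposite strand.

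The Kcnh subfamily of ether-a-go-go channels had 1, 5, 6 and 1 of 8 members higher at 2, 4, 8 and 24 h. Of all symbols 5.52%, 16.0%, 25.5% and 11.4% were higher. With centring 1, 4, 4 and 1 members were higher, against centred backgrounds of 5.43%, 9.68%, 10.5% and 9.56%. The share at 24 h, 12.5%, lay near the background and is read as no result about the subfamily at that time. Kcnh8, with 734 untreated reads, was the member called at 2 h. Its values in the authors' deposited table were 1.33 and 1.15 after 2 and 4 h, both called. After 8 and 24 h they were 0.32 and -0.36, neither called. Kcnh7 went another way, from 0.66 at 2 h (adjusted p = 0.12) to calls at 1.75, 1.77 and 1.57 in the authors' deposited table. The difference between these genes' time courses was not tested. Kcnh1 and Kcnh5 were higher at 4 and 8 h, Kcnh1 at 1.32 and 1.46 and Kcnh5 at 1.15 and 1.19 in the authors' deposited table. Kcnh2, whose human counterpart carries the rapid repolarising current of the heart, was called at 8 h only, at 0.72 in the authors' deposited table, and not with centring. Kcnh6 ranged from -0.28 to 0.25 without a call in the authors' deposited table.

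The Shaker-type Kcna genes had few reads, and only Kcna6 and Kcna7 of the 8 had 10 or more. Kcna6, with 58.9 untreated reads, had 0.37 at 2 h (adjusted p = 0.45) and was higher at 1.30, 1.85 and 1.59 at 4, 8 and 24 h in the authors' deposited table. Kcna7, with 54.1, was called at 4 h (1.09) and 8 h (0.95), the latter not with centring, and had 0.26 at 24 h in the authors' deposited table. Kcna1, which shapes axonal firing, had 7.98 untreated reads and log2 fold changes in the authors' deposited table of 3.31, 4.73, 4.96 and 4.55, all called (adjusted p = 3e-12, 1.6e-25, 7.2e-28 and 3.2e-23). Kcna3, the channel of lymphocytes, had 5.16 untreated reads and was called at each time, at 1.74, 2.46, 3.38 and 2.78 in the authors' deposited table. Such folds rest on few untreated reads and their size is uncertain.

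**Figure D4:**
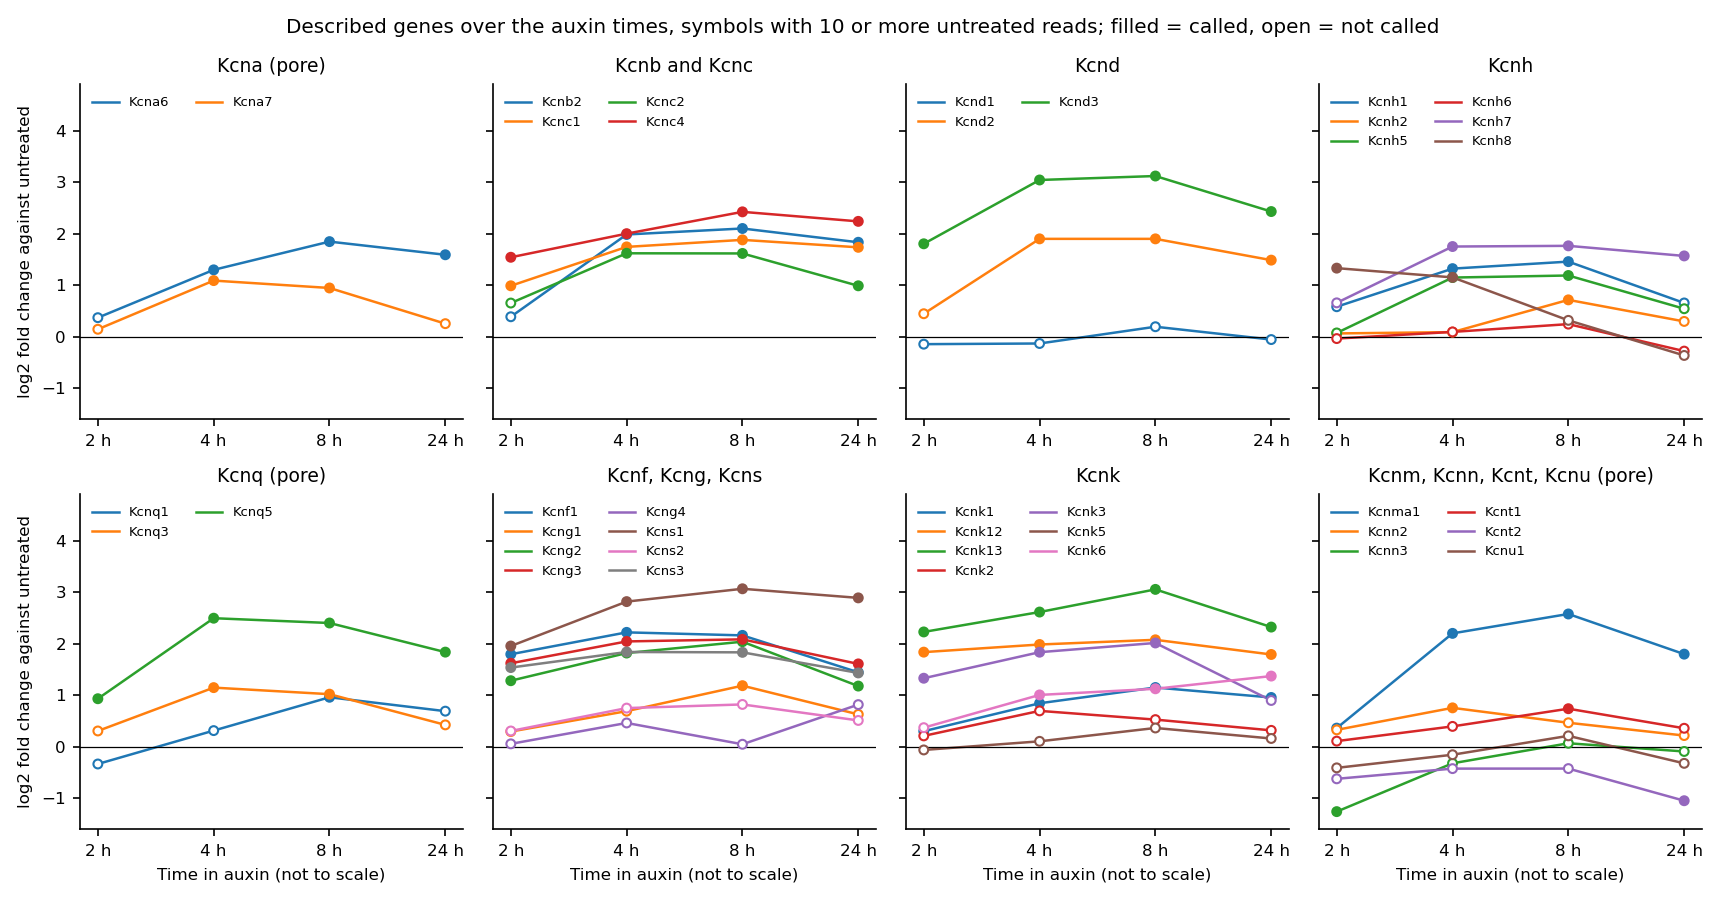
Log2 fold change against untreated cells from the authors' deposited table at 2, 4, 8 and 24 h of auxin (spacing not to scale). Each line is 1 symbol. Drawn are the voltage-gated, silent modifier, tandem-pore leak and ligand-activated genes described in the text that had 10 or more untreated reads. Inward rectifiers are not drawn. Filled points were called and open points were not, and the tables give no error for a point. Kcnd3, Kcns1 and Kcnk13 lie at 1.81 or higher at all 4 times, while Kcnh8 passes from 1.33 at 2 h to -0.36 at 24 h.

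The silent modifier genes, whose products assemble with Kcnb subunits, had 5, 7, 8 and 5 of 10 members higher at 2, 4, 8 and 24 h, with and without centring. These were 50.0%, 70.0%, 80.0% and 50.0%, beside 5.52%, 16.0%, 25.5% and 11.4% of all symbols. Kcns1 was the highest of the silent modifiers, at 1.95, 2.82, 3.07 and 2.89 in the authors' deposited table, from 33.9 untreated reads (adjusted p = 7.2e-08, 2.6e-16, 3.8e-19 and 9.2e-17). Kcns3, with 204 untreated reads, was higher at 1.54, 1.84, 1.83 and 1.43, and Kcng3, with 169, at 1.62, 2.04, 2.08 and 1.61 in the authors' deposited table. Kcng2 was higher at 1.28, 1.82, 2.04 and 1.18, and Kcnf1, with 12.0 untreated reads, at 1.79, 2.22, 2.16 and 1.44 in the authors' deposited table. These 5 genes made up the calls of this role at 2 h and again at 24 h. Kcns2 (0.30 to 0.82) and Kcng4 (0.05 to 0.82) were called at no time in the authors' deposited table, and Kcng1 only at 8 h at 1.18. Kcnv1 and Kcnv2, with 2.59 and 7.75 untreated reads, were called at 4 and 8 h, Kcnv1 at 1.95 and 2.09 and Kcnv2 at 2.05 and 1.76 in the authors' deposited table.

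Tandem-pore leak channels divided by gene. Kcnk13, a halothane-inhibited channel known from microglia, had 41.0 untreated reads and was higher at 2.23, 2.61, 3.05 and 2.32 at 2, 4, 8 and 24 h in the authors' deposited table (adjusted p = 1.1e-07, 8e-11, 2.3e-14 and 1.6e-08). Its close relative Kcnk12 was higher at 1.84, 1.98, 2.08 and 1.79 in the authors' deposited table, from 13.9 untreated reads. Kcnk3, an acid-sensitive channel, was higher at 1.33, 1.83 and 2.01 and stood at 0.90 at 24 h (adjusted p = 0.09) in the authors' deposited table. Kcnk9, another acid-sensitive channel, was listed at 0 untreated reads and was called higher at all 4 times (adjusted p = 2.5e-05, 2.9e-07, 1.7e-07 and 2.2e-05), and no fold is given for it. Kcnk10, a mechanosensitive channel, had only 1.88 untreated reads and log2 fold changes in the authors' deposited table of 4.60, 4.65, 4.53 and 4.14.

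Some leak channels with more untreated reads were called from 4 h or not at all. Kcnk5, the highest, had -0.06, 0.10, 0.36 and 0.16 at 2, 4, 8 and 24 h without a call in the authors' deposited table. Kcnk2, a mechanosensitive channel with 989 untreated reads, had 0.21, 0.70, 0.53 and 0.32 without a call in the authors' deposited table. Kcnk6 was higher from 4 h, at 1.01, 1.12 and 1.37, and Kcnk1 at 0.84, 1.15 and 0.96 in the authors' deposited table, though the 4 h call of Kcnk1 was lost with centring. In all 5, 7, 7 and 6 leak channel genes were higher, of 12 tested at 2 h and 11 afterwards. These were 41.7%, 63.6%, 63.6% and 54.5%, beside 5.52%, 16.0%, 25.5% and 11.4% of all symbols.

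Inward rectifier genes had most of their calls at 8 h. Of those with an adjusted p, 1 of 14 was higher after 2 h, 3 of 14 after 4 h, 7 of 11 after 8 h and 2 of 14 after 24 h, and with centring 1, 3, 3 and 2 were. The shares at 2, 4 and 24 h, 7.14%, 21.4% and 14.3%, lay near the 5.52%, 16.0% and 11.4% of all symbols, while that at 8 h was 63.6% beside 25.5%. Kcnj9, a G-protein-gated subunit with 23.7 untreated reads, was higher at every time at 1.31, 1.79, 1.70 and 1.68 in the authors' deposited table. Kcnj2, the classical strong rectifier of muscle, had 0.32 at 2 h and was then higher at 1.49, 1.23 and 1.48 in the authors' deposited table. Kcnj3, the best covered with 5306 untreated reads, was called at 4 h (1.07) and 8 h (0.89), the latter not with centring, and had 0.31 and 0.30 at 2 and 24 h in the authors' deposited table. Kcnj4, Kcnj12 and Kcnj14 were called at 8 h alone, at 0.90, 0.83 and 0.92 in the authors' deposited table, and none of these 3 calls held with centring. Kcnj11, the pore of the ATP-sensitive channel, lay between -0.21 and 0.33 in the authors' deposited table.

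Among ligand-activated pore genes 0, 2, 2 and 1 of 8 were higher at 2, 4, 8 and 24 h. These shares of 0%, 25.0%, 25.0% and 12.5% lay near the 5.52%, 16.0%, 25.5% and 11.4% of all symbols. They are read as no result about the role. The role also held both members that were called lower. Kcnn3, a small-conductance calcium-activated channel with 186 untreated reads, fell by 1.26 on the log2 scale at 2 h in the authors' deposited table (adjusted p = 0.001). At 4, 8 and 24 h its values in the authors' deposited table were -0.32, 0.07 and -0.09, none of them called. Kcnt2, a sodium-activated channel with 3365 untreated reads, had -0.62, -0.43 and -0.43 at 2, 4 and 8 h and fell by 1.05 at 24 h (adjusted p = 0.0047) in the authors' deposited table. Both calls held with centring. Kcnma1, the large-conductance calcium-activated channel, went the other way: it had 0.36 at 2 h (adjusted p = 0.47) and was then higher at 2.20, 2.58 and 1.80 in the authors' deposited table (adjusted p = 8.1e-10, 4.1e-13 and 8.1e-07). Kcnn2 was called at 4 h only, at 0.75 (adjusted p = 0.048), and Kcnt1 at 8 h only, at 0.74, in the authors' deposited table, and neither held with centring. Kcnu1, the channel of sperm, had -0.41, -0.16, 0.21 and -0.32 without a call in the authors' deposited table.

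Among auxiliary subunit genes 1 of 15 was higher after 2 h, 1 of 14 after 4 h, 3 of 14 after 8 h and 2 of 14 after 24 h. These shares of 6.67%, 7.14%, 21.4% and 14.3% lay near the 5.52%, 16.0%, 25.5% and 11.4% of all symbols, lower at 4 and 8 h and higher at 2 and 24 h, and are read as no result about the role. Kcnmb4, the neuronal partner of the Kcnma1 channel, was the member called throughout, at 1.27, 1.52, 1.59 and 1.22 in the authors' deposited table (adjusted p = 0.00068, 1.4e-05, 5.4e-06 and 0.0009). It had 103 untreated reads. The 4 Kcnip genes, calcium-binding partners of the Kcnd channels, were not called at any time, with values from -0.41 (Kcnip2 at 24 h) to 0.34 (Kcnip4 at 8 h) in the authors' deposited table. Kcnip3 had 403 and Kcnip2 250 untreated reads, more than Kcnd3. Of the Kcnab genes, which encode cytoplasmic partners of the Kcna channels, Kcnab3 was called at 8 and 24 h, at 0.77 and 0.88 in the authors' deposited table, the former not with centring. Kcnab2 had -0.43 at 2 h in its best-covered entry (adjusted p = 0.35), but -0.91 in a shorter entry (adjusted p = 0.027) in the authors' deposited table. Among the Kcne genes, single-span partners of Kcnq and other pores, the call was Kcne1l at 8 h (1.62 in the authors' deposited table, from 3.05 untreated reads). Kcne1 and Kcne3, with 9.64 and 6.81 untreated reads, were not called.

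No noncoding member was called. Kcnq1ot1, with 13231 untreated reads, had 0.20, 0.62, 0.47 and 0.18 at 2, 4, 8 and 24 h in the authors' deposited table (adjusted p from 0.088 at 4 h to 0.65 at 2 h). Kcnd3os and Kcnmb4os2, with 1.88 and 2.94 untreated reads, reached 1.01 and 1.12 at most in the authors' deposited table, beside called changes in Kcnd3 and Kcnmb4. The libraries were directional per the labels' protocols, while the strand used in counting is not given in the sources used here, so reads of a gene and its antisense partner could be shared. Kcnrg, a soluble protein related to channel subunits, had values from -0.20 to 0.11 in the authors' deposited table.

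The share of channel genes called higher differed by gene length, and the order of the length classes was not the same at each time. Of the 23 potassium channel genes of 100 kb or more 17.4%, 60.9%, 56.5% and 34.8% were higher at 2, 4, 8 and 24 h, beside 13.4%, 29.8%, 34.3% and 20.2% of all tested symbols of that length. Of the 29 from 20 to 100 kb 37.9%, 51.7%, 69.0% and 44.8% were higher, beside 4.50%, 12.9%, 22.3% and 8.75% of all symbols. Of the shorter ones 12.5%, 34.2%, 48.6% and 23.7% were higher, beside 4.29%, 14.7%, 25.7% and 11.02%. The genes of 100 kb or more thus had the highest share among the channel genes at 4 h, and those from 20 to 100 kb at the other 3 times. The genes were also grouped by the untreated level in the PRC2deg line, whose libraries enter no auxin comparison. Of the 22 tested members with 5 or more reads per kilobase 22.7%, 54.5%, 54.5% and 27.3% were higher, beside 3.30%, 12.9%, 23.5% and 7.04% of all symbols at that level. Of members from 1 to 5 reads per kilobase 20.5%, 50.0%, 68.4% and 44.7% were higher, beside 11.7%, 24.2%, 32.6% and 21.96%. Of members under 1 read per kilobase 22.6%, 36.7%, 44.4% and 23.3% were higher, beside 7.75%, 21.0%, 27.5% and 19.2%. These shares describe the genes and were not tested.

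Other genes of potassium handling were counted in the same way, and their difference from the Kcn genes was not tested. Among 15 partners and relatives outside the Kcn symbols, 0, 4, 6 and 2 were higher at 2, 4, 8 and 24 h by the authors' DESeq2 values, of 15 tested at 2 h and 14 later, and 0, 2, 2 and 2 with centring. The shares at 4, 8 and 24 h were 28.6%, 42.9% and 14.3%, beside 16.0%, 25.5% and 11.4% of all symbols, and with centring each was 14.3%, near the centred background of 9.68%, 10.5% and 9.56%. At 2 h 1 of them had an unadjusted p under 0.05. Hcn4, a channel of the pacemaker current, had 1.21 at 4 h, and Abcc8, the sulphonylurea receptor that joins Kcnj11, 1.14 at 24 h in the authors' deposited table, both called. Of 23 potassium pumps and cotransporters 0, 0, 1 and 0 were higher and 0 lower by DESeq2, and 1, 2, 5 and 3 had an unadjusted p under 0.05. Not all 23 were tested: Atp4b had no adjusted p at any auxin time and Fxyd1 none at 4, 8 and 24 h. Of all tested symbols 5.52%, 16.0%, 25.5% and 11.4% were higher and 0.25%, 0.128%, 0.0808% and 0.602% lower. The call among the pumps and cotransporters was Slc12a4 at 8 h, at 0.81 in the authors' deposited table and lost with centring. Of 5 primitive endoderm markers 3, 5, 5 and 4 were higher at 2, 4, 8 and 24 h and of 5 neuronal markers 1 at each time, which was Rbfox3. These counts stand beside 5.52%, 16.0%, 25.5% and 11.4% of all symbols. The neuronal count lay near that background at 4 and 8 h and is read as no result about neuronal markers. Of the fibroblast markers Col1a2 was higher at 8 and 24 h, and at 8 h this was 25.0% of those tested, near the background. No stem cell marker was called at any time, nor had one an unadjusted p under 0.05. The part of these marker genes' cells in the channel genes' changes was not tested.

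In the PRC2deg line 2 h of dTAG-13 gave no call. By the authors' DESeq2 values 0 of the 97 members with an adjusted p were higher and 0 lower, as for all symbols (0% in each direction). The unadjusted p-values are not in the tables used here, and no more than 975 of the 19506 entries could have had one under 0.05 given the adjusted values. The member farthest from 0 was Kcnh7, at 9.01e-06 on the log2 scale in the authors' deposited table, and 48 members lay above 0 and 49 below. No log2 fold change of that comparison was farther from 0 than 0.000985, so they give no size to set beside those of auxin, and the difference between the lines was not tested.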

How the data were processed

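Nuclear RNA of 21 libraries was measured by the authors as directional paired-end reads of 80 bp (PRC1deg) or 40 bp (PRC2deg) after ribosomal RNA depletion, per the labels' protocols. Bowtie2, STAR, SAMtools, bedtools and DESeq2 and the builds mm10 and dm6 are named in the submitters' processing notes, without versions or settings. The 5 tables deposited by the authors each compare treated with untreated cells, spike-in normalised. Each holds a log2 fold change, a p-value deposited by the authors as adjusted only, an untreated mean, and the entry's length. The mean is headed RPKM but was read as a signal deposited by the authors, size-factor-normalised reads per kilobase, because mean times length summed to 30450536 (PRC1deg), far above what a scaling to a fixed library size gives. No column per library exists in them, so depth per library is unknown and no test was refitted.

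Calls needed an adjusted p under 0.05 (DESeq2, over all genes of a table) and a fold over 1.5. Symbols without an adjusted p were left out of counts of tested genes. Background shares use 1 entry per symbol. Bounds on unadjusted p were worked back from the adjusted values, tested on simulated data. Genes given values by rule were members called at 2 h with 10 or more untreated reads, the 10 highest and 5 lowest calls at other times, the member of each subfamily letter with the most reads or, where needed, the smallest adjusted p, all lower calls, Kcnq1ot1 and at most 5 with fewer reads. Other named members and pathway genes, such as Kcnh7, Kcnc2, Kcna6, Kcnk6 and Kcnv1, complete a subfamily or list and were chosen after their values were seen. The members and lists were chosen with earlier results of these data known. Some members and list genes are counted in groups but not reported by name here. Mouse sequences were not used here. Python 3.11.15, pandas 2.3.3, numpy 2.4.6, scipy 1.17.1 and matplotlib 3.10.9 were used.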

Additional observations from a re-analysis of the deposited data

How the results depend on the processing

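No member count changed by over 1.5 times with an adjusted p under 0.01, a fold over 2, no fold threshold, centring, 10 or more untreated reads, the longest entry of each symbol, or protein-coding symbols only (the last chosen after seeing the data). With 50 or more untreated reads 8, 24, 30 and 17 members were higher at 2, 4, 8 and 24 h, since that setting keeps 48 of 98 symbols. With every entry counted, or a symbol called if any entry was (chosen after seeing the data), 2 were lower at 2 h, the added one being Kcnab2. The smallest counts of higher members among the thresholds were 17 at 2 h, 35 at 4 h and 39 at 8 h with an adjusted p under 0.01 and 26 at 24 h with a fold over 2. For the 42 genes named by the rule, 168 values at the 4 auxin times were checked. Of these, 3 calls were lost with centring, 9 with an adjusted p under 0.01 and 6 with a fold over 2. No call turned direction, while 22 values that were not called changed sign with centring. Other genes named in the text lost calls as well. Over all members, centring took the count higher from 42 to 37 at 4 h and from 50 to 39 at 8 h. With centring the member medians were 0.05, 0.30, 0.34 and 0.27. No paired analysis was possible because the tables hold no value per library, and leaving out single replicates was not run for the same reason. The spread between replicates is therefore seen only through the adjusted p, and 29 members had under 10 untreated reads.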
